A study of Mus musculus with 12 samples.

Results

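Messenger RNA was compared between untreated and doxycycline-treated cells that carry an inducible miR-26a transgene, in 6 of the 12 libraries of the series. The cells were primary cultures grown until confluent from white fat of C57BL/6 mice aged 6 weeks, using its stromal vascular fraction. All 6 libraries had the genotype M2rtTA;eGFP.miR-26a, in which M2rtTA is a transactivator that binds doxycycline and then switches on a transgene holding miR-26a together with the fluorescent protein eGFP. The 3 CTL libraries came from cells without treatment, and the 3 Dox libraries came from cells given doxycycline for 4 days at 1 mg/ml, as labelled. That is a high dose for cultured cells, and whether the unit is right could not be checked. CTL and Dox libraries of the same replicate number were compared as a pair. Both groups carried the transgenes, and none of the libraries used here was from treated cells without them, so an effect of the drug itself and an effect of miR-26a cannot be told apart. The promoter of the transactivator is not given in the sources used here, and the labels do not say whether replicates were separate mice or cultures, so p-values cover just the spread among these libraries. The other 6 libraries were of wild-type cells (WT) and of cells from which all 3 miR-26 genes had been deleted (TKO), made as a separate comparison, and the purpose stated for the series was to find targets of miR-26 in adipocyte progenitors.

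A microRNA is a short RNA that guides an Argonaute protein to messenger RNAs, mostly by pairing of its seed with their 3' untranslated region (UTR), after which the messenger RNA is translated less and broken down sooner. The seed is the run of bases 2 to 8 from the 5' end. The mouse has a miR-26 gene inside each of Ctdspl, Ctdsp2 and Ctdsp1, whose own products are phosphatases that act on RNA polymerase II. The stromal vascular fraction holds the progenitors that can become fat cells, beside vascular, immune and other cells.

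The mature strand made by the transgene and its closest relative are shown because every match counted below derives from them, with the seed they share in capitals (RefSeq, GRCm38.p6):
mmu-miR-26a-5p: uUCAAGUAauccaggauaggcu
mmu-miR-26b-5p: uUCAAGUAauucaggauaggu

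A full match to the seed followed by A, the 8mer, reads TACTTGAA in the messenger RNA. The 7mer-m8 is TACTTGA, the 7mer-A1 is ACTTGAA and the 6mer is ACTTGA, so the shorter motifs lie within the 8mer, and each gene was put in the best class it holds. Motifs were searched on the transcript's own strand in the 3' UTR of 1 transcript per gene (GENCODE vM21, GRCm38). Of 11887 tested genes with such a UTR, 599 held an 8mer (5.04%), 767 a 7mer-m8 at best, 1212 a 7mer-A1, 1793 a 6mer only and 7516 none. Sites of 13 of the genes described below follow, to show what the classes look like: every 8mer of these genes, and, for Lipa and Ctdsp2, which hold none, their matches of 7 bases. The 7-base matches that other genes hold beside an 8mer are not printed. Each has 11 bases on either side, the match in capitals and the coordinates of the match:
Lipa, 7mer-A1 in exon 10, chr19:34493966-34493972, minus strand: gtgaatgctggACTTGAAtacttcccctt
Lipa, 7mer-A1 in exon 10, chr19:34492802-34492808, minus strand: aaaaaaaaaaaACTTGAAgattaatacaa
Lipa, 7mer-m8 in exon 10, chr19:34492413-34492419, minus strand: tgcaggaatatTACTTGAtattggctcat
Zdhhc20, 8mer in exon 13, chr14:57836573-57836580, minus strand: atggaatgaaaTACTTGAAgtgtaacagaa
Zdhhc20, 8mer in exon 13, chr14:57833529-57833536, minus strand: tatatggtcttTACTTGAAttttaattctt
Ttc13, 8mer in exon 23, chr8:124671947-124671954, minus strand: taggaattgaaTACTTGAAaacattttctt
Siae, 8mer in exon 10, chr9:37646699-37646706, plus strand: aggctagcagaTACTTGAAatgctcatctc
Siae, 8mer in exon 10, chr9:37648250-37648257, plus strand: tatacatcctaTACTTGAAagcagcgtttc
Adam17, 8mer in exon 20, chr12:21323978-21323985, minus strand: tgttacactaaTACTTGAAtatataccttg
Nus1, 8mer in exon 5, chr10:52437983-52437990, plus strand: atttttaaataTACTTGAAataaaatgatt
Stradb, 8mer in exon 12, chr1:58994525-58994532, plus strand: tgacaaatctaTACTTGAAaatacagttgg
Hgf, 8mer in exon 19, chr5:16619228-16619235, plus strand: tctcctgaagaTACTTGAAtgaattaaaaa
Ulk1, 8mer in exon 28, chr5:110784942-110784949, minus strand: ctgttcatgcaTACTTGAAagtatctgagt
Ulk1, 8mer in exon 28, chr5:110784850-110784857, minus strand: tttctttgcaaTACTTGAAatattgccact
Rgs4, 8mer in exon 5, chr1:169742219-169742226, minus strand: ggcacgtgaaaTACTTGAAaatttctcatt
Plod2, 8mer in exon 20, chr9:92608070-92608077, plus strand: taaagcttacgTACTTGAAttttatatcag
Ctdsp2, 7mer-m8 in exon 8, chr10:126997566-126997572, plus strand: agtgttgctctTACTTGAtttgccaaatg
Ctdsp2, 7mer-A1 in exon 8, chr10:126999881-126999887, plus strand: tgtattcaaaaACTTGAActgtaggatgc
Fbxl19, 8mer in exon 11, chr7:127768710-127768717, plus strand: tctctacacaaTACTTGAAcattcatctgt
Fbxl19, 8mer in exon 11, chr7:127768739-127768746, plus strand: tactgaagtgtTACTTGAAccgggggaatc

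None of these 20 matches was tested for binding in these data. A match is a run of letters in the annotated UTR, and which UTR ends these cells use was not measured. Lipa holds 3 matches of 7 bases, and Zdhhc20, Siae, Ulk1 and Fbxl19 each hold a pair of 8mers.

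The deposited signal is a read count scaled to library size, and whole reads recovered from it numbered 20182665 to 24122542 in CTL and 19301969 to 25785441 in Dox. The 100 genes with most reads took 26.05% to 28.4% of them. The table lists 16785 genes. Levels of eGFP, the transactivator and miR-26a were not analysed here, so the induction itself was not checked. Deviations of same-numbered CTL and Dox libraries from their group means correlated across genes at 0.86, 0.58 and 0.74, while differently numbered ones correlated at -0.64 to -0.20, and replicate number took 74.5% of the variance against 14.1% for treatment. Deviations sum to 0 within a group, so positive values for same numbers force negative ones elsewhere. Dox replicate 2 stood apart: a trend with length and GC content of the transcript took a share of 0.271 of the variance of its deviations, against 0.0066 to 0.040 in the other 5 libraries. Markers of the labelled cell type were present, with a summed signal over 20 progenitor markers of 10008 to 11104 in CTL and 10585 to 10738 in Dox. Such a sum is carried by its most abundant members and does not by itself tell cell types apart.

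Most genes that changed with doxycycline were lower. Of 12634 genes that reached a signal of 1 in 3 or more of the 6 libraries, 265 (2.10%) passed an adjusted p of 0.05 in the paired limma fit, 194 of them lower (1.54%) and 71 higher (0.562%). The changes were small: 11 of the 265 reached 1 on the log2(signal + 1) scale, and the median size was 0.54. The direction was the same in all 3 pairs for all 265, which selection by a paired fit on these pairs favours. The 2 groups did not overlap in 170 of the 265, and in 1536 of all genes tested (12.2%). The calls rest on the pairing, since the same fit without it called 0 genes (748 had an unadjusted p under 0.05), as did edgeR without it (0 called, 743 with an unadjusted p under 0.05). By the authors' deposited table, a false discovery rate under 0.05 held for 10 genes. All 10 were lower and also called here, among them Lipa, Zdhhc20, Ttc13, Glmp, Bivm, Adam17, Siae, Nus1 and Tmem173.

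The number of calls depends on single libraries and settings. It was 134, 1534 and 591 without replicate 1, 2 and 3, and of the 265 calls 94, 265 and 252 remained, with 94 remaining in all 3 of these fits. None could change direction there, since all pairs of each call had the same sign. With the trend on length and GC content removed from each library, 966 genes were called, 263 of the 265 among them. On the recovered reads with the pairing, edgeR called 189 genes (36 higher) and DESeq2 403 (101 higher), and 188 and 248 of the 265 were among them. limma without its trend on mean level called 0 genes, 2071 having an unadjusted p under 0.05.

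**Figure D1:**
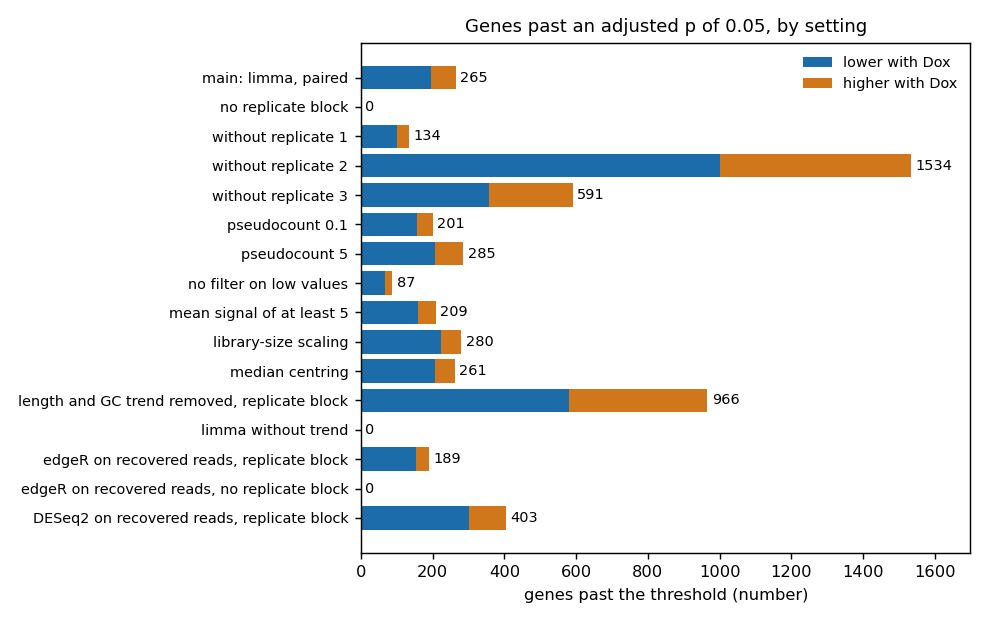
Genes past an adjusted p of 0.05 (x axis, number of genes) under each setting (y axis), blue for genes lower with Dox and orange for genes higher with Dox, with the total at the end of each bar. Lower genes outnumber higher ones in every bar that holds any, and the totals run from 0 without the replicate block to 1534 without replicate 2.

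The plot of calls by setting shows that lower genes outnumbered higher genes wherever any were called, and that leaving out the pair with Dox replicate 2 raised the count most.

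Genes with a full miR-26 seed match in their 3' UTR were mostly lower with doxycycline. No test over genes was made, and the classes are described by their medians and counts. The median log2 change was -0.13 for the 599 genes with an 8mer, -0.03 for a 7mer-m8, -0.03 for a 7mer-A1, 0.01 for a 6mer only and 0.03 with no match, beside 0.01 over all genes tested. Of the 8mer genes 437 (73.0%) lay below 0, against 3151 of the 7516 with no match (41.9%). Among 8mer genes 63 fell (10.5%) and 2 rose, Adamts6 and Ermp1, both named after their values were seen. With no match 49 fell (0.652%) and 52 rose (0.692%), where 1.54% of all genes were lower and 0.562% higher. By pair the 8mer medians were -0.13, -0.16 and -0.08 in pairs 1, 2 and 3, and those with no match were 0.00, 0.07 and 0.02.

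The 194 lower genes comprised 63 with an 8mer (32.5%), 26 with a 7mer-m8, 32 with a 7mer-A1, 21 with a 6mer only and 49 with none (25.3%), and 3 had no 3' UTR in the annotation used, mt-Rnr1, mt-Rnr2 and the pseudogene Gstm2-ps1. The 71 higher genes comprised 52 with no match (73.2%) and 10 with a 6mer only. Another 5 of them held a 7mer-A1: Ak4, Bcat1, Creb5, Star and Tgm2.

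Genes with an 8mer had lower medians than those with no match within each of 3 groups of UTR length. Long UTRs hold more matches, with an 8mer in 1.11%, 3.68% and 10.3% of the shortest, middle and longest UTRs of 3 groups of nearly equal size, which part at 709 and 1856 bases. Within these groups the 8mer medians were -0.26, -0.19 and -0.10 (44, 146 and 409 genes), against 0.03, 0.02 and 0.03 with no match. Length was not matched inside a group: the median UTR of 8mer genes was 459, 1267 and 3505 bases, against 325, 1141.5 and 2516 with no match. The 8mer medians were lowest in the shortest UTRs, where 8 of 44 genes fell (18.2%), while medians with no match were alike. With 1 site the median was -0.12 (566 genes), and with more it was -0.20 (33 genes, 6 of them lower). Matches elsewhere had medians between that of all genes tested (0.011) and that with no match (0.027). The median was 0.014 for 236 genes whose only 8mer lay before the stop codon. It was 0.012 and 0.021 for 221 and 425 genes with an 8mer to the passenger strands of miR-26a-1 and miR-26a-2. Of the 236 genes 5 fell (2.12%) and 0 rose, beside 0.652% lower with no match and 1.54% of all genes. In the passenger-strand sets 0.905% and 0.471% fell. These searches were added after the first results were seen.

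**Figure D2:**
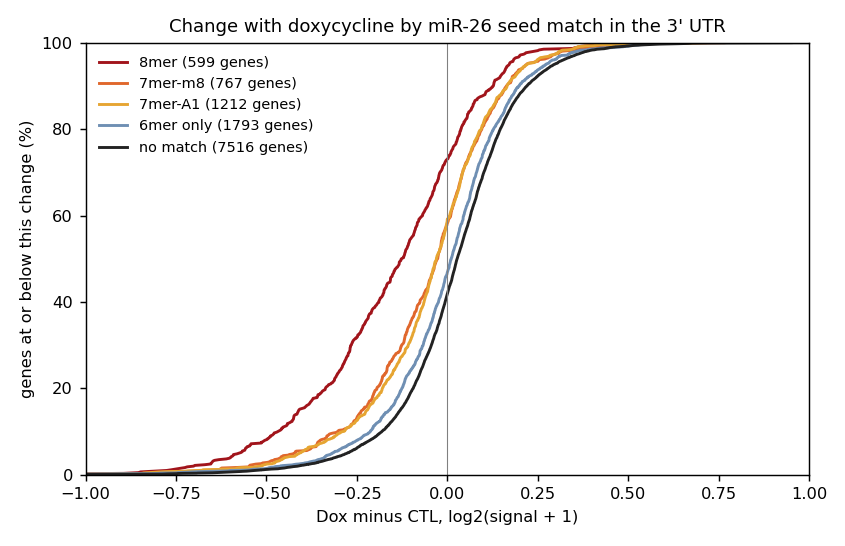
Cumulative share of genes (y axis, percent) at or below each change (x axis, Dox minus CTL on the log2(signal + 1) scale), 1 line per class of seed match. The 8mer line lies to the left of the others and crosses 0 at 73.0%, both 7mer lines lie between, and the line for genes with no match crosses 0 at 41.9%.

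The plot of cumulative shares shows that the 8mer genes were shifted along most of the range, and that both 7mer classes ran almost together.

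Lipa, Zdhhc20 and Adam17 had the smallest p among the genes with a match that are described here. Lipa encodes the lysosomal acid lipase that frees cholesterol and fatty acids from lipids taken up by the cell. It is listed as ENSMUSG00000024781.15 (chr19:34492318-34527474, minus strand) and read 121, 113 and 115 in CTL against 61.9, 62.9 and 49.6 in Dox. Every Dox library was below every CTL library by a wide margin, and the log2 change was -0.997 ± 0.087 (SE, n = 3 pairs, limma adjusted p 0.0036). Zdhhc20, an enzyme that attaches palmitate to proteins, read 108, 93.8 and 106 in CTL against 59.99, 51.8 and 52.3 in Dox. These groups did not overlap either, with little spread within each, and the change was -0.89 ± 0.076 (limma adjusted p 0.0036). Adam17, the protease that releases TNF and other membrane-bound ligands, read 107, 124 and 102 in CTL against 63.4, 73.8 and 57.998 in Dox. Its change was -0.76 ± 0.072 (limma adjusted p 0.0036), close to the same in all pairs (-0.74, -0.74 and -0.81). The related protease Adam10, which holds a 7mer-A1, read 155, 167 and 188 in CTL against 122, 117 and 131 in Dox, a change of -0.46 ± 0.074 (limma adjusted p 0.023, and 0.053 without replicate 1).

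Nus1 and Stradb fell by like amounts. Nus1, a subunit of the enzyme that builds dolichol for protein glycosylation, read 95.8, 95.96 and 108 in CTL against 65.8, 66.3 and 64.4 in Dox. No library of one group reached the other, with a change of -0.60 ± 0.078 (limma adjusted p 0.012). Stradb, a pseudokinase that binds and activates LKB1, read 10.9, 13.3 and 11.3 in CTL against 7.35, 6.57 and 6.72 in Dox. It is a low signal with separate groups, and changed by -0.70 ± 0.12 (limma adjusted p 0.024).

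Ttc13 and Siae are 8mer genes among the 10 of the authors' deposited table. Ttc13, which encodes a tetratricopeptide repeat protein, read 66.4, 54.6 and 65.03 in CTL against 33.4, 39.3 and 32.1 in Dox. Dox replicate 2 was the highest of the Dox libraries and still below all CTL libraries, with a change of -0.81 ± 0.11 (limma adjusted p 0.013). Siae, an esterase that removes acetyl groups from sialic acid, read 23.5, 26.9 and 21.6 in CTL against 11.3, 14.2 and 13.2 in Dox, a change of -0.85 ± 0.10 (limma adjusted p 0.010). Rgs4, which speeds the switching off of G-protein signals, read 11.3, 10.04 and 7.78 in CTL against 5.54, 5.51 and 1.69 in Dox. Its level was lowest in Dox replicate 3, and the change was -1.13 ± 0.17 (limma adjusted p 0.021).

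Hgf, Ulk1, Loxl2 and Plod2, which hold a match, also fell. Hgf, the ligand of the receptor Met, read 20.5, 35.8 and 47.8 in CTL against 14.1, 22.4 and 17.5 in Dox. CTL varied widely between replicates and the groups overlapped, so the call rests on the pairs, which changed by -0.51, -0.66 and -1.40 (fit -0.85 ± 0.15, limma adjusted p 0.031). Ulk1, the kinase that starts autophagy, read 57.02, 52.2 and 56.1 in CTL against 34.8, 41.95 and 33.6 in Dox. That change of -0.58 ± 0.098 (limma adjusted p 0.027) did not pass without replicate 1 (0.090). Loxl2, a lysyl oxidase that cross-links collagen, read 421, 277 and 308 in CTL against 249, 179.9 and 160.3 in Dox and changed by -0.77 ± 0.081 (limma adjusted p 0.0065). Of the 50-base stretches of its transcript a share of 0.458 also occurs in other genes, so its count may be split. Plod2, a lysyl hydroxylase of collagen, read 572, 673 and 315 in CTL against 385, 359.8 and 225 in Dox with overlap between the groups, and changed by -0.65 ± 0.091 (limma adjusted p 0.015). These were the 2 called members of 16 collagen processing enzymes tested (12.5%, beside 1.54% of all genes lower), and 5 of the 16 were below 0, with a list median of 0.08.

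Other 8mer genes named by size were Acat2, an acetyl-CoA acetyltransferase (-0.78 ± 0.077, limma adjusted p 0.0046), the mitochondrial carrier Slc25a16 (-0.75 ± 0.099, 0.012), the ubiquitin ligase Rnf149 (-0.70 ± 0.11, 0.019), Clec14a (-0.74 ± 0.15, 0.041) and Tmem56 (-0.73 ± 0.12, 0.023). Acat2 read 48.4, 68.7 and 84.04 in CTL against 27.7, 41.3 and 47.1 in Dox, with a share of 0.459 of its 50-base stretches found in other genes. Its groups did not overlap, although CTL replicate 1 came within a narrow margin of Dox replicate 3. The call of Tmem56 ended without replicate 1 (limma adjusted p 0.068), and that of Clec14a, at a limma adjusted p of 0.041, ended with edgeR (0.0505).

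**Figure D3:**
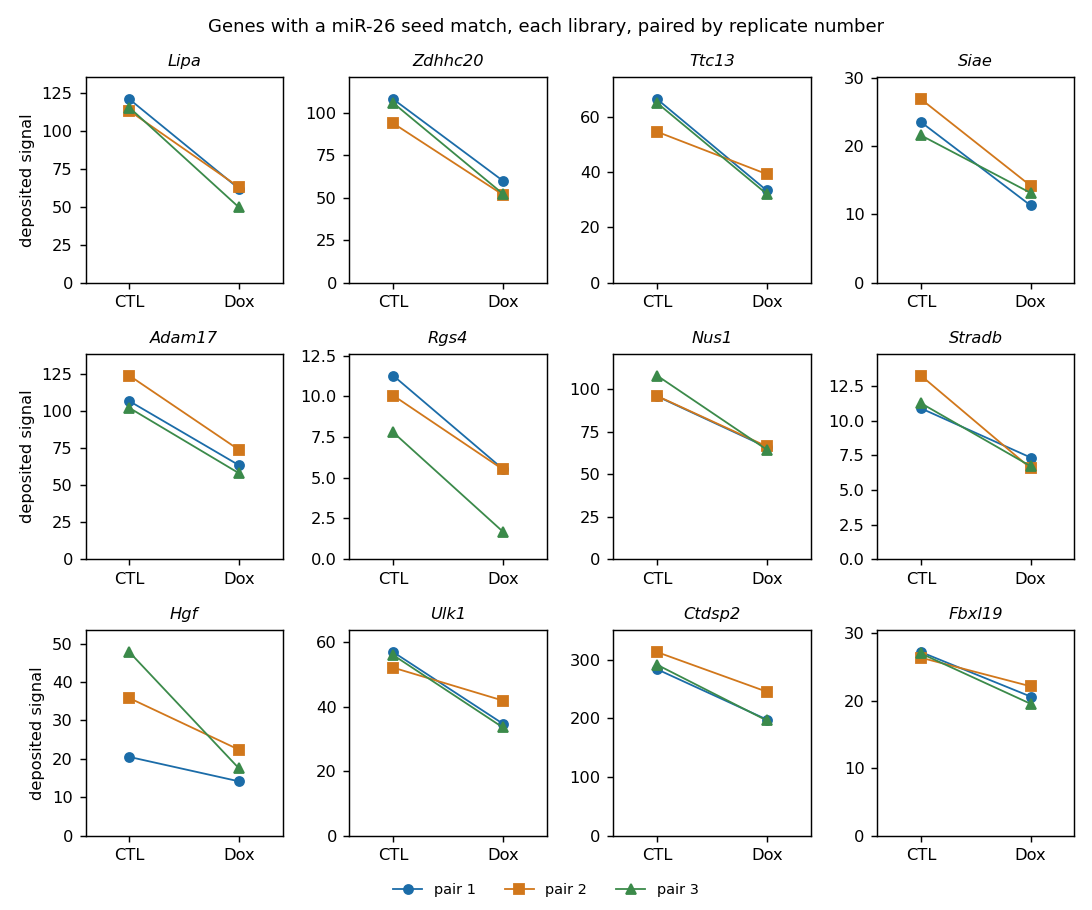
Deposited signal (y axis, from 0, scaled read count) of 12 genes with a miR-26 seed match in each CTL and Dox library (x axis), 1 line per pair of libraries with the same replicate number. All 36 lines slope down, and CTL and Dox overlap in Hgf alone of the 12 panels.

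In the plot of genes with a seed match the 12 genes differ in how evenly the pairs moved: the lines of Zdhhc20 and Adam17 run nearly parallel, while those of Hgf spread. Fbxl19, the F-box protein of the series title, is among them although it did not pass. It read 27.2, 26.4 and 27.02 in CTL against 20.6, 22.2 and 19.6 in Dox, without overlap, and changed by -0.36 ± 0.090 (limma adjusted p 0.079). Without replicates 1, 2 and 3 the adjusted p was 0.54, 0.0060 and 0.11, and with the trend on length and GC content removed the change was -0.40 (0.014). No member of the 9 tested genes of its ligase complex and its CXXC relatives passed in limma, edgeR or DESeq2 with the pairing, and 1, Fbxl19, had an unadjusted limma p under 0.05.

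The host genes of miR-26 moved unequally. Ctdsp2, host of miR-26a-2 and itself a holder of a 7mer-m8, read 284, 313 and 291 in CTL against 198, 245 and 196 in Dox. All Dox libraries were below all CTL libraries, and the change was -0.48 ± 0.075 (limma adjusted p 0.021, and 0.12 without replicate 1). Ctdsp1, host of miR-26b with no match, read 84.9, 92.2 and 84.7 in CTL against 71.6, 89.8 and 72.2 in Dox, a change of -0.17 ± 0.077 that did not pass (limma adjusted p 0.30). Ctdspl, host of miR-26a-1 with no match, read 32.5, 35.9 and 33.2 in CTL against 31.1, 38.2 and 28.7 in Dox, with the groups interleaved and a change of -0.06 ± 0.089 (limma adjusted p 0.80). Whether Ctdsp2 differed from the other two was not tested.

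A list of 34 genes reported elsewhere as miR-26 targets had 32 members tested, of which 9 fell (28.1%, beside 1.54% of all genes) and 23 did not pass, with a median of -0.17 beside 0.01 over all genes. Like the other lists, it was chosen with earlier results of these data known, so its share is a description and not an independent check. In edgeR with the pairing 9 were called and in DESeq2 11. Among the 9 were Zdhhc20, Adam17, Nus1, Stradb, Hgf, Ulk1, Ctdsp2 and Kpna2, an importin whose 50-base stretches nearly all recur in other genes (a share of 0.924). Kpna2 read 85.7, 91.5 and 72.02 in CTL against 60.99, 72.7 and 55.98 in Dox, with overlap, and its call (-0.39 ± 0.075, limma adjusted p 0.039) ended without replicate 1 (0.40). Members with an 8mer did not all move. Tet2, an enzyme that oxidises methylated cytosine in DNA, read 32.1, 30.2 and 26.7 in CTL against 34.1, 31.9 and 31.4 in Dox, a change of 0.13 ± 0.084 (limma adjusted p 0.48). The cyclin-dependent kinase Cdk6, also with an 8mer, changed by 0.01 ± 0.098 (limma adjusted p 0.97), and Ezh2, the methyltransferase of histone H3, by -0.09 ± 0.11 (0.74). Tdg, the thymine DNA glycosylase with a 7mer-m8, had the highest value, 0.38 ± 0.11 (limma adjusted p 0.13).

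Of 27 lysosome and autophagy genes tested 1 was called, Ulk1 (3.70%, beside 1.54% of all genes lower), and the list median was -0.05. Lipa, Glb1 and Glmp, which fell, and Pla2g15, which rose, encode lysosomal proteins outside that list. Glb1, the lysosomal beta-galactosidase, read 95.6, 89.5 and 94.8 in CTL against 49.1, 68.1 and 40.9 in Dox and changed by -0.84 ± 0.13 (limma adjusted p 0.021). Glmp, a lysosomal membrane glycoprotein, read 179, 181 and 199 in CTL against 97.4, 125 and 93.8 in Dox and changed by -0.82 ± 0.10 (limma adjusted p 0.011). Both hold a 7mer-A1, and in both the highest Dox library, replicate 2, stayed below the lowest CTL library. Bivm, with 3 matches of the 7mer-m8 kind, read 24.5, 25.1 and 22.7 in CTL against 14.4, 11.9 and 12.4 in Dox (change -0.86 ± 0.099, limma adjusted p 0.010). Trp53inp1, a p53 target that acts in autophagy, holds a 7mer-m8 at best. It read 111, 111 and 136 in CTL against 69.6, 46.9 and 88.1 in Dox (change -0.83 ± 0.11, limma adjusted p 0.013). It was the 1 called member of 17 p53 targets tested (5.88%, beside 1.54% of all genes lower).

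Interferon response genes, which act against viruses, were mostly lower. Of 28 in the list 26 were tested. Among these 6 fell (23.1%, beside 1.54% of all genes), 20 did not pass, and 25 were below 0, with a median of -0.44 beside 0.01 over all genes. Oasl2, a relative of the oligoadenylate synthetases, read 26.3, 18.9 and 27.6 in CTL against 12.98, 12.5 and 15.4 in Dox. No Dox library reached a CTL library, with a change of -0.78 ± 0.11 (limma adjusted p 0.013). Isg15, a ubiquitin-like modifier, read 13.5, 8.69 and 25.6 in CTL against 6.54, 6.498 and 12.5 in Dox, overlapping, with a change of -0.76 ± 0.13 (limma adjusted p 0.031). Rtp4 changed by -0.75 ± 0.14 (limma adjusted p 0.033), the guanylate-binding protein Gbp3 by -0.73 ± 0.12 (0.022), Xaf1 by -0.66 ± 0.13 (0.037) and Parp14 by -0.44 ± 0.088 (0.041). Of these 6 genes Parp14 alone holds a match of 7 or more bases. Ifit1 read 12.04, 10.4 and 22.6 in CTL against 4.63, 11.8 and 10.6 in Dox with Dox replicate 2 above its CTL partner, and did not pass (limma adjusted p 0.15).

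The pairs did not contribute equally to that list, with medians of -0.61, -0.18 and -0.50. Without replicate 1, 2 and 3 the number of lower members was 1, 15 and 12, and without replicate 1 the adjusted p of Isg15 was 0.053, of Rtp4 0.11 and of Gbp3 0.094. In these bulk libraries fewer cells of a type and less RNA per cell cannot be told apart. The summed signal of 16 macrophage markers ran from 47.4 to 220.2 in CTL and from 36.3 to 191.8 in Dox, and by replicate the 14 tested ones summed to 217, 99.6 and 47.2 in CTL against 189, 102 and 35.9 in Dox. None of the 14 passed in limma, edgeR or DESeq2 (5 had an unadjusted limma p under 0.05), Adgre1 was at most 2.63 and Ptprc at most 2.87 in any library, and their part in the interferon result was not tested.

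**Figure D4:**
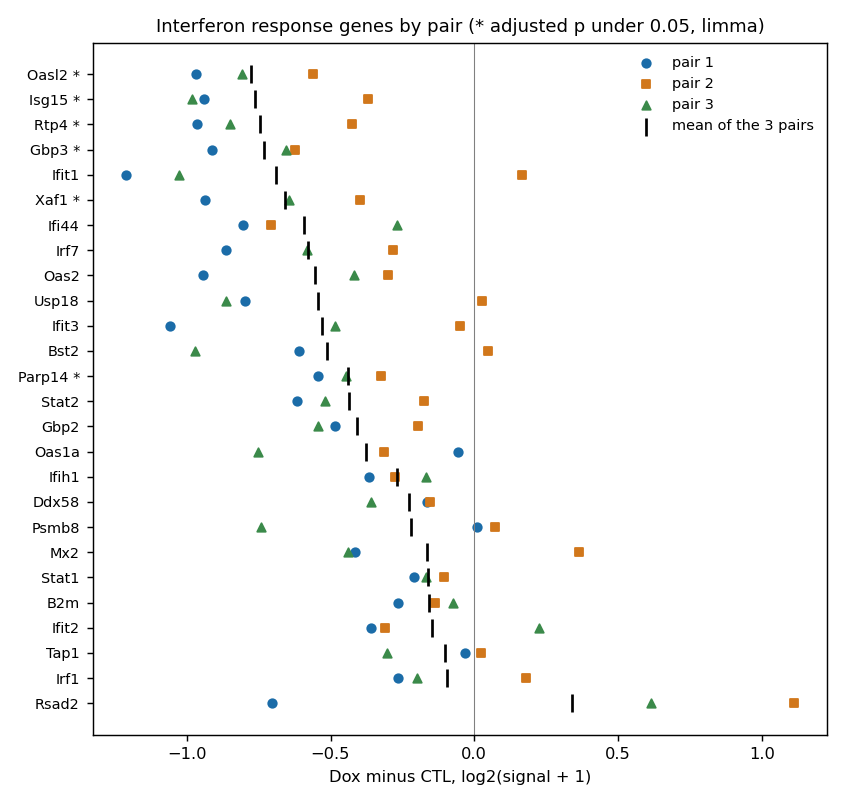
Change in each pair (x axis, Dox minus CTL on the log2(signal + 1) scale) for the 26 interferon response genes tested (y axis, sorted), with 1 symbol per pair, a black bar for the mean of the 3 pairs and an asterisk at genes past the threshold. The mean is below 0 for 25 of the 26 genes, and pair 2 lies nearer 0 than pairs 1 and 3 for most of them.

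In the plot of interferon response genes the exception is Rsad2, whose pairs point in different directions. Zbp1 and Serpina3g, which are not in that list, were among the 15 largest falls named without overlap. Zbp1, a sensor of nucleic acids, read 13.8, 7.38 and 13.5 in CTL against 5.64, 5.89 and 4.91 in Dox (change -0.91 ± 0.18, limma adjusted p 0.039, and 0.0505 with edgeR). Tmem173, the adaptor STING, read 74.5, 63.6 and 62.3 in CTL against 41.97, 42.5 and 30.7 in Dox without overlap (change -0.79 ± 0.094, limma adjusted p 0.010), and it is described because it is one of the 10 genes of the authors' deposited table. Cxcl5, a chemokine that draws neutrophils, read 6.61, 13.6 and 15.1 in CTL against 3.17, 6.88 and 2.09 in Dox. The low value in Dox replicate 3 stands out, the groups overlap, and the call (change -1.38 ± 0.25, limma adjusted p 0.033) ended with edgeR (0.052) and DESeq2 (0.099). Il1rl1, the receptor of interleukin 33, holds a 7mer-A1. It read 90.5, 121 and 262 in CTL against 49.7, 101 and 137 in Dox (change -0.68 ± 0.12, limma adjusted p 0.031). Those were the 2 called members of 20 inflammatory and NF-kappaB genes tested (10%, beside 1.54% of all genes lower). The list median was -0.20, and by pair it was -0.18, 0.04 and -0.40. Serpina3g, a protease inhibitor, read 11.2, 14.2 and 10.4 in CTL against 3.67, 9.31 and 1.81 in Dox (change -1.32 ± 0.22, limma adjusted p 0.025, and 0.052 with edgeR and 0.062 with DESeq2), again lowest in Dox replicate 3.

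Apod, Prelp and Ly6a fell and hold no 8mer. Apod, a lipid carrier of the lipocalin family, read 9.24, 11.7 and 13.9 in CTL against 4.43, 7.11 and 4.59 in Dox, a change of -0.99 ± 0.15 (limma adjusted p 0.019). Prelp, a proteoglycan of connective tissue, read 232, 232 and 315 in CTL against 101, 207 and 97.4 in Dox. Dox replicate 2 stayed near the CTL libraries while the other Dox libraries were far lower, and the call (change -1.01 ± 0.22, limma adjusted p 0.049) ended with edgeR (0.069) and DESeq2 (0.21). Ly6a, known as Sca-1 and used to sort adipocyte progenitors, read 75.9, 118 and 245 in CTL against 48.2, 104 and 124 in Dox. Its spread between replicates exceeded the change within pairs, -0.60 ± 0.13 (limma adjusted p 0.047, and 0.058 with edgeR). Ly6a was the 1 called member of 20 progenitor markers (5%, beside 1.54% of all genes lower), whose median was -0.06. Hoxd8, a factor of positional identity with an 8mer, changed by -0.57 ± 0.10 (limma adjusted p 0.031, and 0.10 without replicate 1), and Rab39b, a small GTPase with a 7mer-A1, by -0.80 ± 0.11 (0.016).

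Genes of the fat cell programme moved little. Lpl, the lipase that frees fatty acids from circulating lipoproteins, holds a 7mer-A1. It read 1422, 1367 and 867 in CTL against 989, 1060.3 and 586 in Dox. The groups overlapped, every pair fell, and the change was -0.48 ± 0.080 (limma adjusted p 0.024, and 0.21 without replicate 1). It was the 1 called member of 18 adipocyte lipid genes tested (5.56%, beside 1.54% of all genes lower), and the list median was -0.03. Pparg, the nuclear receptor that drives fat cell formation, read 15.6, 20.1 and 16.5 in CTL against 15.2, 19.1 and 17.5 in Dox, with the groups interleaved and a change of -0.01 ± 0.094 (limma adjusted p 0.98). Cebpa, its partner factor, read 21.6, 43.03 and 33.8 in CTL against 19.5, 44.3 and 22.6 in Dox and changed by -0.22 ± 0.12 (limma adjusted p 0.38). Of 20 adipogenic transcription factors tested 1 rose (5%, beside 0.562% of all genes), Stat5b, which transmits growth hormone and prolactin signals. Stat5b read 37.3, 50.1 and 41.5 in CTL against 50.5, 66.6 and 53.7 in Dox. Its change of 0.40 ± 0.076 (limma adjusted p 0.037) did not pass without replicate 1 (0.31). Dlk1, an inhibitor of fat cell formation, read 17.95, 85.96 and 75.98 in CTL against 21.8, 118 and 105 in Dox. Replicate 1 was far below the other replicates in both groups, and within pairs the change was 0.39 ± 0.080 (limma adjusted p 0.043, and 0.11 without replicate 1). It was the 1 called member of 15 inhibitors of adipogenesis (6.67%, beside 0.562% of all genes higher).

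Both ribosomal RNAs of the mitochondrion fell. mt-Rnr1 read 137, 107 and 157 in CTL against 76.7, 55.6 and 93.3 in Dox and changed by -0.83 ± 0.074 (limma adjusted p 0.0036). mt-Rnr2 read 259.9, 243 and 284 in CTL against 179, 133 and 183 in Dox and changed by -0.68 ± 0.082 (limma adjusted p 0.010). Neither had overlapping groups, and Dox replicate 2 was lowest in both. Of the 12 mitochondrially encoded genes tested these 2 were called in limma (16.7%, beside 1.54% of all genes lower) and in edgeR. DESeq2 called another, mt-Nd1, a subunit of complex I. It was at -0.33 ± 0.093 (limma adjusted p 0.11, and 0.012 with DESeq2), while mt-Nd2, of the same complex, was at 0.42 ± 0.13 (0.13). Of the 12 genes 10 were below 0, with a list median of -0.18 beside 0.01 over all genes. By pair the list medians were -0.02, -0.74 and 0.09, far lowest in pair 2. The libraries were made by selecting messenger RNA, so the level of ribosomal RNA also depends on what that selection left behind, which was not measured. Gstm1, a glutathione transferase (-0.63 ± 0.12, limma adjusted p 0.039), Cyp1b1, a cytochrome P450 (-0.42 ± 0.081, 0.039), and Slc7a11, which imports cystine (-0.60 ± 0.10, 0.026), were the 3 lower members of 21 Nrf2, metal and xenobiotic response genes tested (14.3%, beside 1.54% of all genes), whose median was -0.07. Without replicate 1 none of the 3 passed (0.058, 0.12 and 0.14). Each holds a match: Gstm1 a 7mer-m8, Cyp1b1 a 7mer-A1 and Slc7a11 an 8mer.

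The higher genes included secreted factors, matrix proteins and receptors. Angptl4, a secreted inhibitor of Lpl, read 28.5, 26.2 and 21.03 in CTL against 55.7, 35.1 and 46.4 in Dox. The groups were separate, and the change was 0.82 ± 0.13 (limma adjusted p 0.021). Fbn2, a fibrillin of elastic microfibrils, read 335, 327 and 196 in CTL against 482, 488 and 459 in Dox, with even Dox values and a low CTL replicate 3 (change 0.77 ± 0.12, limma adjusted p 0.023). Scand1 read 7.94, 9.48 and 9.43 in CTL against 15.6, 26.1 and 12.03 in Dox. Dox replicate 2 was far above the rest, and the change of 0.86 ± 0.17 (limma adjusted p 0.039) was 0.63 with the trend on length and GC content removed and did not pass with edgeR (0.053). Creb5, a transcription factor of the CREB family, read 9.56, 7.62 and 5.42 in CTL against 16.1, 10.03 and 12.6 in Dox (change 0.71 ± 0.14, limma adjusted p 0.039, and 0.056 with edgeR). Ptch1, the receptor and target of Hedgehog signalling, read 19.1, 20.8 and 13.8 in CTL against 34.98, 25.8 and 26.6 in Dox, without overlap (change 0.68 ± 0.12, limma adjusted p 0.033, and 0.070 without replicate 1).

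Other genes named for the size of their rise follow. Plxna4, a semaphorin receptor, read 39.9, 22.6 and 38.8 in CTL against 60.8, 41.1 and 57.9 in Dox and rose in each pair by a like amount (0.60, 0.83 and 0.57, limma adjusted p 0.012). Sema3f, a secreted semaphorin, read 5.92, 6.91 and 8.82 in CTL against 9.16, 9.27 and 18.1 in Dox (change 0.63 ± 0.13, limma adjusted p 0.045), and its call ended with scaling by library size (0.0539) and without replicate 1 (0.066). Polr3g, a subunit of RNA polymerase III, changed by 0.64 ± 0.11 (limma adjusted p 0.029, and 0.066 without replicate 1). Pla2g15, a lysosomal phospholipase, read 41.4, 45.2 and 50.9 in CTL against 61.1, 65.6 and 78.6 in Dox (change 0.56 ± 0.075, limma adjusted p 0.013), with all Dox libraries above all CTL libraries. The matrix proteins Ltbp4 (0.56 ± 0.10, limma adjusted p 0.033) and Adamts14, a procollagen protease (0.62 ± 0.12, 0.038), also passed without replicate 1 (0.021 and 0.0093), whereas Dusp14, Gfod1 and Klhl23, at 0.60, 0.59 and 0.57, did not (0.081, 0.073 and 0.097).

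Mmp9, a secreted gelatinase, had the largest rise among the genes named and a wide spread between replicates. It read 36.3, 12.8 and 1.32 in CTL against 59.03, 30.4 and 5.59 in Dox, overlapping between the groups, with pair changes of 0.69, 1.19 and 1.51 and a fit of 1.13 ± 0.14 (limma adjusted p 0.012). Markers of epithelial cells, which the culture can hold beside progenitors, varied with the same replicates: the summed signal of 7 markers was 201, 43.3 and 6.46 in CTL against 216, 53.3 and 20.1 in Dox. That order of replicates was not particular to them. The macrophage markers tested summed to 217, 99.6 and 47.2 in CTL against 189, 102 and 35.9 in Dox. The endothelial markers summed to 153, 110 and 96.3 in CTL against 193, 129 and 107 in Dox. Krt8, a keratin, read 70.6, 12.9 and 1.89 in CTL against 80.5, 18.2 and 6.399 in Dox and changed by 0.67 ± 0.19 (limma adjusted p 0.11). All 7 epithelial markers were above 0 in their change, none passed in limma, edgeR or DESeq2, and 3 had an unadjusted limma p under 0.05. The part of any of these cell types in the Mmp9 result was not tested. Cdh3, a cadherin named here after its values were seen, read 16.8, 13.97 and 32.4 in CTL against 32.2, 26.4 and 69.99 in Dox and rose by a like amount in each pair (change 0.95 ± 0.089, limma adjusted p 0.0036).

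In the list of 24 matrix proteases and inhibitors 2 rose, Mmp9 and Plau (8.33%, beside 0.562% of all genes), and 2 fell, Adam17 and Adam10 (8.33%, beside 1.54%), with a median of -0.11. Plau, the urokinase plasminogen activator, read 73.6, 103 and 65.1 in CTL against 99.5, 131 and 115 in Dox (change 0.53 ± 0.096, limma adjusted p 0.033). Of 28 collagens and matrix proteins tested 2 were called, both higher (7.14%, beside 0.562% of all genes), with a list median of 0.05. Tnc, tenascin C, read 1899.9, 1373 and 2034 in CTL against 2607, 2048 and 2449.6 in Dox, without overlap (change 0.43 ± 0.092, limma adjusted p 0.048), and its call ended without replicate 1 (0.44) and did not hold with median centring. Col8a1, a short-chain collagen, read 227, 175 and 221 in CTL against 350.0, 206 and 383 in Dox, with Dox replicate 2 inside the CTL range (change 0.55 ± 0.10, limma adjusted p 0.034, and 0.072 without replicate 1). Kdr, the main VEGF receptor and an endothelial marker, read 42.5, 36.9 and 35.6 in CTL against 59.9, 49.3 and 56.4 in Dox (change 0.51 ± 0.083, limma adjusted p 0.023, and 0.071 without replicate 1). It was the 1 called member of 11 endothelial markers (9.09%, beside 0.562% of all genes higher), whose summed signal was 96.3 to 152.6 in CTL and 106.6 to 193 in Dox. Pecam1, another of them, read 15.3, 6.35 and 0.990 in CTL against 23.7, 6.99 and 1.05 in Dox and did not pass (limma adjusted p 0.39). Ngfr, a neurotrophin receptor and 1 of 6 Schwann cell markers tested, read 141, 198 and 64.9 in CTL against 170.2, 255 and 98.004 in Dox (change 0.41 ± 0.081, limma adjusted p 0.041, 0.092 without replicate 1 and 0.055 with edgeR). Ngfr was the 1 called member of that list (16.7%, beside 0.562% of all genes higher). The list went the other way, with 5 of the 6 below 0 and a median of -0.14.

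**Figure D5:**
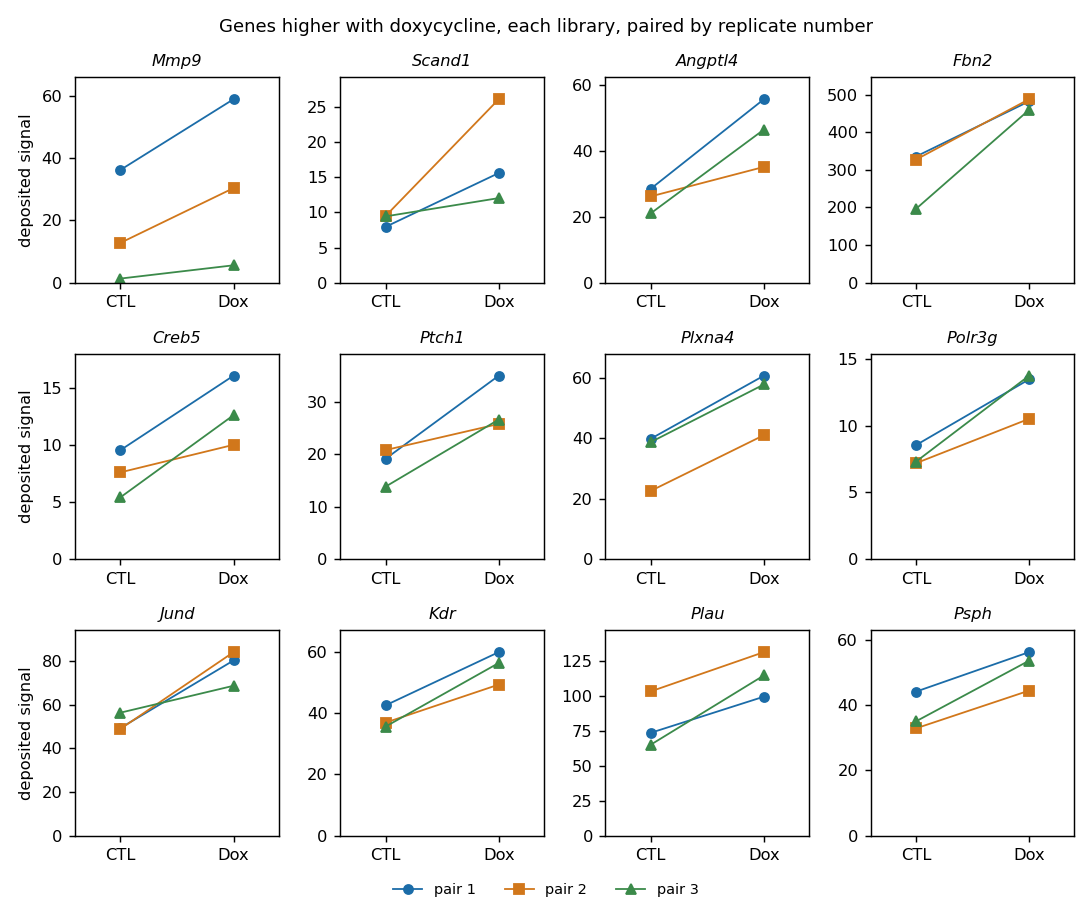
Deposited signal (y axis, from 0, scaled read count) of 12 genes higher with Dox in each CTL and Dox library (x axis), 1 line per pair of libraries with the same replicate number. All 36 lines slope up, and the lines of Mmp9 start at 36.3, 12.8 and 1.32 while those of Jund and Kdr start closer together.

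The plot of higher genes shows rises of unequal size between the pairs, with pair 2 the largest for Scand1 and the smallest for Ptch1 and Creb5. Jund, a member of the AP-1 family, read 49.3, 48.9 and 56.4 in CTL against 80.3, 84.1 and 68.7 in Dox, without overlap (change 0.58 ± 0.10, limma adjusted p 0.029). With the trend on length and GC content removed it was 0.40, and without replicate 1 it did not pass (0.066). It was the 1 called member of 19 immediate-early genes tested (5.26%, beside 0.562% of all genes higher).

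Genes of amino acid metabolism under the factor ATF4 were mostly above 0. Of 30 tested in that list 3 rose (10%, beside 0.562% of all genes), 1 fell, 26 did not pass and 5 were below 0, with a median of 0.22. The 1 that fell was Slc7a11, which holds an 8mer. Psph, the last enzyme of serine synthesis, read 44.2, 32.9 and 35.1 in CTL against 56.4, 44.5 and 53.7 in Dox (change 0.46 ± 0.084, limma adjusted p 0.033). Mthfd2, a mitochondrial folate enzyme, read 127, 91.9 and 99.6 in CTL against 151, 119.8 and 135 in Dox (change 0.35 ± 0.074, limma adjusted p 0.046). Slc7a5, a transporter of large neutral amino acids, read 199, 164 and 188 in CTL against 233, 211 and 259.9 in Dox (change 0.35 ± 0.075, limma adjusted p 0.0497). These 3 calls were weak: without replicate 1 the adjusted p was 0.091, 0.20 and 0.19, Mthfd2 and Slc7a5 did not pass with edgeR (0.055 and 0.060), and Slc7a5 did not pass with scaling by library size (0.0521) or median centring (0.0508). Atf4 itself changed by 0.15 ± 0.075 (limma adjusted p 0.33). By pair the list medians were 0.08, 0.27 and 0.26.

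In 19 of the 40 lists no member passed in limma. They held 366 tested genes, among them 49 ribosomal protein genes, 41 nuclear genes of the respiratory chain, 37 of mitochondrial translation and proteostasis, 30 of G1/S and replication, 28 of Wnt and 27 of TGF-beta and BMP signalling, 25 of G2/M and mitosis, 25 of cholesterol synthesis and 11 of the microRNA machinery. Of the 366 genes 80 had an unadjusted limma p under 0.05, beside 2187 of all 12634, edgeR with the pairing called 0 and DESeq2 called 7. The medians of these lists ran from -0.12 for the 4 replication-dependent histone genes to 0.29 for the epithelial markers. Those of proliferation lay near all genes, 0.07 for G1/S and replication and -0.04 for G2/M and mitosis, and that of the microRNA machinery was 0.13. Among 24 positional identity genes Hoxd8 alone was called (4.17%), and among 37 receptor tyrosine kinases and ligands Hgf alone (2.70%), beside 1.54% of all genes lower.

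The genes lower with doxycycline were looked up in the separate comparison of TKO with WT, in which 23.2% of 12649 genes rose and 22.7% fell. Of the 63 lower genes with an 8mer 21 rose in TKO (33.3%) and 12 fell (19.0%), with a median of 0.12. Of the 49 lower genes with no match 9 rose (18.4%) and 6 fell (12.2%), and of the 71 higher genes 70 were tested there, with 7 rising and 13 falling. Stradb (0.84 in TKO, limma adjusted p 0.00047), Rnf149 (0.67, 0.0080), Nus1 (0.60, 0.0013) and Tmem173 (0.59, 0.0020) were lower with doxycycline and higher in TKO. So were Rgs4 (0.61, 0.0047), Acat2 (0.43, 0.0050), Slc25a16 (0.43, 0.0070), Glmp (0.48, 0.0051) and Ctdsp2 (0.38, 0.026). The same held for Serpina3g (0.90, 0.0014) and Cxcl5 (1.53, 0.041), which hold no match. Fbxl19, which did not pass with doxycycline, was higher in TKO (0.72, 0.0025). Unlike Ctdsp2, the host genes Ctdsp1 (-0.30, 0.024) and Ctdspl (-0.39, 0.011) were lower in TKO, and neither passed with doxycycline. Each host holds a miR-26 gene that was deleted in TKO, and what the deletion did to the host's own level was not tested. Ttc13 was lower in both (-0.34, 0.010), as were mt-Rnr1 (-0.71, 0.0011), mt-Rnr2 (-0.83, 0.00073) and Adam10 (-0.45, 0.028). Many of the genes with a match that are described above as lower with doxycycline did not pass in TKO. Lipa was at 0.01 (limma adjusted p 0.93), Zdhhc20 at 0.19 (0.0703), Adam17 at 0.14 (0.14), Siae at 0.19 (0.12) and Hgf at 0.57 (0.28). Below 0 and also not past the threshold were Ulk1 (-0.31, 0.10), Plod2 (-0.17, 0.51), Bivm (-0.12, 0.26) and Loxl2 (-0.0043, 0.97). The tables were normalized apart and share no library, and no test of the difference between the comparisons was run.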

How the data were processed

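RNA was measured in 6 libraries, 3 CTL and 3 Dox, sequenced as 75-base single reads from a stranded kit that selects messenger RNA, per the labels. Per the submitters' processing notes the tools were TopHat2 2.0.12, featureCounts 1.4.6, edgeR 3.8.6 and StringTie 1.2.2, with reads placed on GRCm38 (mm10). Whether counting used strand is not given in the sources used here, so overlapping and antisense genes may share reads. The authors deposited 1 signal per gene and library, a read count scaled to library size, for genes above 0 in all 6 libraries. They also deposited a log2 fold change, a likelihood ratio score and a p-value with its false discovery rate per gene, which the authors' table adjusts over 53918 genes.

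Whole reads were recovered from the deposited signal (99.857% to 100% of values within 0.1 of a whole number). Each gene was fitted with limma 3.58.1 (R 4.3.3), with its trend on mean level, on log2(signal + 1) with the replicate number as a block and Benjamini-Hochberg adjustment over 12634 genes. The pseudocount of 1 understates the change of low genes. The replicate numbers come from the labels, and pairing by them was set in the design. All 3 same-numbered pairs deviated together, as given in the text. The fit was tested on simulated data. The alternatives were edgeR 4.0.16 and DESeq2 1.42.0 on recovered reads, other scalings, pseudocounts and filters, and leaving out each pair.

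The genes, the 40 gene lists and the rules were chosen with earlier results of these data known. Genes named are Fbxl19, the 3 host genes, the 15 highest and 15 lowest changes past the threshold (mean signal of at least 5, no overlap), up to 4 called members per list, the called reported targets and the 12 largest falls with an 8mer. Other genes named, among them members that did not pass, were chosen after their values were seen. A gene that this rule names is not reported here.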

Additional observations from a re-analysis of the deposited data

How the results depend on the processing

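All 265 calls kept their direction under every setting that held the gene, and the median over 8mer genes (-0.15 to -0.10) and over interferon response genes (-0.53 to -0.29) stayed below 0. Leaving out a pair could not change the direction of a call, since all pairs of each call had the same sign. Neither could limma without the block or without its trend, which give the same log2 changes as the main fit. The number of calls did not stay. Without the replicate block, that is without pairing the libraries, limma called 0 genes, 0 higher and 0 lower, with 0 8mer genes and 0 interferon response genes (748 with an unadjusted p under 0.05), and edgeR without the block, added after seeing the data, also called 0 (743). limma with the block and without its trend called 0 (2071). Leaving out each pair in turn gave 134 to 1534 genes, 35 to 533 higher, 99 to 1001 lower, 27 to 147 lower with an 8mer and 1 to 15 lower interferon response genes, the lowest of each without replicate 1 and the highest without replicate 2.

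With no filter on low values 87 genes were called (19 higher, 68 lower, 29 of them with an 8mer and 1 an interferon response gene). With the length and GC trend removed 966 were called (387 higher, 579 lower, 136 with an 8mer and 11 interferon response genes), so the share of higher genes was 40.1% beside 26.8%, and without replicate 3 it was 39.6%. A pseudocount of 0.1 called 45 higher genes and edgeR with the block 36, while DESeq2 called 403 genes, 302 of them lower. The cause of these differences was not tested. Among genes named, the calls of Cyp1b1 (limma adjusted p 0.0502), Slc7a5 (0.0823), Mthfd2 (0.0589) and Ngfr (0.0531) also ended without replicate 3. Genes with few reads are the least precise, and the filter left 12634 of the 16785 genes listed.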
